A study of Mus musculus with 48 samples.

Results

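Nanog was followed across single cells of the mouse inner cell mass (ICM). It was chosen by name, as 1 gene of the 49671 in the count table, and its counts were read in all 48 cells. The ICM is the group of cells inside the blastocyst that gives rise to the epiblast, the source of the fetus, and to the primitive endoderm, which contributes to the yolk sac. The cells came from 3 blastocysts at E3.75, a stage counted in days of embryonic development, bred by crossing carriers of a reporter allele with F1 hybrids (C57BL/6JxCBA/J). Their genotype was Pdgfra H2B-GFP/+, so 1 Pdgfra allele carried the sequence of a nuclear fluorescent protein and the other was wild type. That is the genotype the study gives, while the sample titles label every cell WT. The embryos were untreated and had been picked for GFP-positive cells scattered through the ICM, so they stand for that stage of reporter expression. Each ICM was isolated by immunosurgery, which removes the outer trophectoderm, and the cells were then processed 1 by 1 with the Smart-seq2 protocol, which covers whole transcripts. The total count on genes per cell ranged from 1718970 to 7342785, with a median of 4017082. No label gives the embryo of a cell, so the 48 cells are 1 sample without replicates: no test was made, and correlations across cells are descriptions. The study's dendrogram of these cells has a branch of 25 presumptive epiblast cells (pEPI) and a branch of 23 presumptive primitive endoderm cells (pPrE), which were read from it by eye.

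Nanog encodes a homeodomain transcription factor of the pluripotency network, in which it acts with OCT4 (Pou5f1) and SOX2. In the blastocyst it marks the cells that become epiblast, while GATA6 marks those that become primitive endoderm, and early ICM cells can hold both. Signalling by FGF4 through FGF receptors and ERK lowers Nanog and favours primitive endoderm.

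The ICM label was checked against marker genes. Pou5f1 ranged from 224 to 473 FPKM, with a median of 360, and had counts in all 48 cells, where FPKM is the count scaled by exon length and by the library size of the cell, taken as the median of ratios to the other cells. The 12 trophectoderm genes differed widely. Of the transcription factor genes, Cdx2 had counts in 3 of 48 cells, Elf5 in 5, Tfap2a in 6 and Gata3 in 9, while Tead4 had counts in 47, Tfap2c in 38, Eomes in 22 and the regulator Id2 in 20. The keratin gene Krt7 had counts in 1 cell, Krt19 in 7, Krt18 in 13 and Krt8 in 46. The summed level of the 12 trophectoderm genes had a median of 67.8 FPKM (17.4 to 224), led by Krt8 with a mean of 34.3 FPKM, and its Spearman rho with Nanog over the 48 cells was 0.246. Its mean was 95.6 FPKM in the pEPI branch and 60.5 FPKM in the pPrE branch, a gap held mostly by Tfap2c (24.5 and 1.70 FPKM) and Krt8 (40.2 and 28 FPKM). Gata3, Eomes, Elf5, Id2 and Tead4 had higher means in pPrE. The part of such transcripts in the results below was not tested. Of the 18 primitive endoderm genes, the summed level ran from 61.9 to 1240 FPKM with a median of 259.

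Every cell held Nanog counts, from 2 to 7110 (48 of 48 cells, exact 95% interval 92.6% to 100%). These intervals treat cells as independent draws and leave out differences between embryos. The lowest level was 0.174 FPKM in well D8, the median was 74.1 FPKM and the highest level was 724 FPKM in well C3. No cell was without Nanog counts, although the cells of wells D8, E8, F2 and A5, all pPrE, lay below 1 FPKM on 2 to 4 counts each. The 2 counts of D8 have an exact Poisson interval of 0.242 to 7.22, which covers counting error only, because amplified copies of a molecule were not told apart in the counting. At a minimum of 10 CPM, the count scaled by the total of the cell, Nanog was detected in 43 of 48 cells (89.6%, interval 77.3% to 96.5%), and at 50 CPM in 36 (75%, interval 60.4% to 86.4%). All 25 pEPI cells passed 50 CPM, against 11 of 23 pPrE cells (47.8%, interval 26.8% to 69.4%). Expression was concentrated in few cells, as the 12 cells highest in Nanog FPKM held 68.0% of the 79252 Nanog counts. Depth moved little with the level, with a rho of -0.101 between Nanog and the total count and -0.259 between Nanog and the mitochondrial share over 48 cells.

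**Figure D1:**
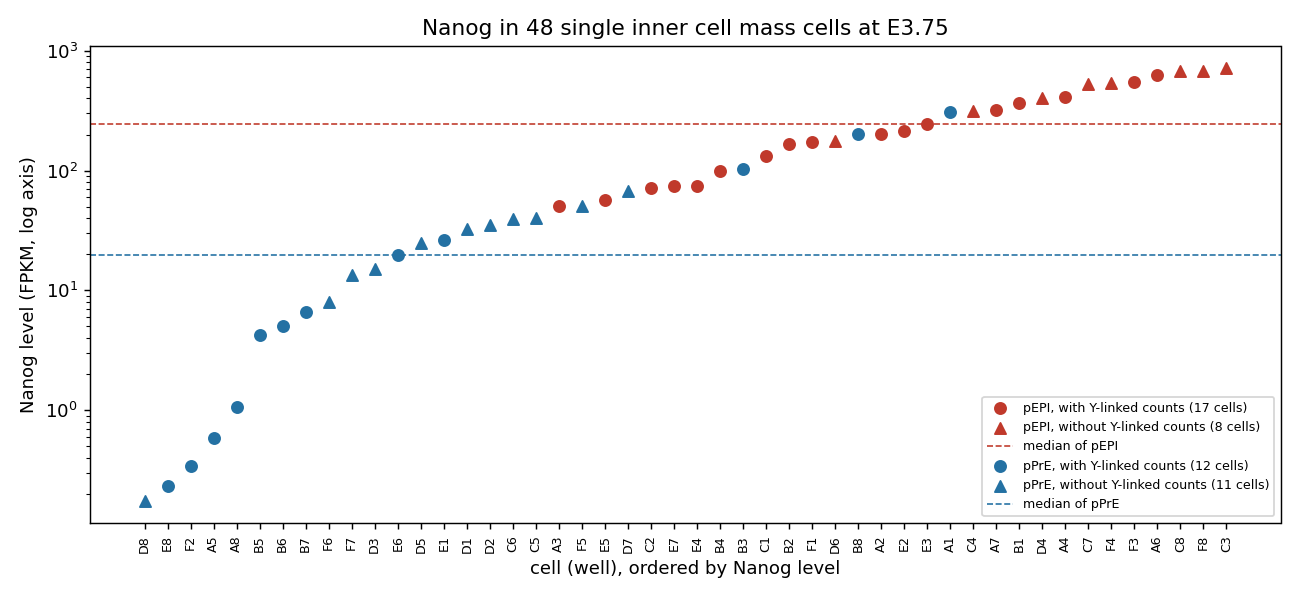
Nanog level in FPKM (log axis) of each of the 48 cells, named by well and ordered from lowest to highest, with pEPI in red, pPrE in blue, circles for cells with Y-linked counts, triangles for cells without, and dashed lines at the branch medians. The pEPI cells lie between 50.7 and 724 FPKM and overlap the 5 highest pPrE cells.

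The branches were drawn from the same cells with Nanog among the genes, so their difference is a description. In pEPI the lowest level was 50.7 FPKM (well A3), the median 247 FPKM and the highest 724 FPKM. In pPrE the lowest was 0.174 FPKM, the median 19.9 FPKM and the highest 308 FPKM (well A1). The levels overlapped: 5 of 23 pPrE cells reached the lowest pEPI cell, and 13 of 25 pEPI cells lay at or below the highest pPrE cell. The branches held 54.2% of the variance of log2(FPKM + 1) over the 48 cells, and the rest lay among cells of the same branch. The log2 ratio of pPrE over pEPI was -2.85 by means and -3.63 by medians.

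Cells in the zone of overlap did not share a single profile. The pPrE cell A1, with Nanog at 308 FPKM, had Fgf4 at 15.2 FPKM, Gata4 at 17.4 FPKM and Gata6 at 2.80 FPKM. In the pPrE cell B8, with Nanog at 202 FPKM, no Fgf4 count was found and the endoderm receptor gene Pdgfra was at 40.8 FPKM. Among the 5 lowest pEPI cells (A3, E5, C2, E7 and E4, 50.7 to 74.1 FPKM of Nanog), E5 and E7 carried Gata6 at 46.1 and 42.8 FPKM and Gata4 at 39.7 and 52.7 FPKM, whereas A3 had Gata6 at 3.16 FPKM and Gata4 at 0.0925 FPKM. Both branches therefore held cells with Nanog and endoderm transcription factors together.

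Within pEPI the level differed between cells with and without Y-linked counts. Counts of 4 Y-linked genes separated 29 cells from 19 cells, and male and female cells come from different embryos. In pEPI, the 17 cells with Y-linked counts had Nanog from 50.7 to 629 FPKM with a median of 174 FPKM. The 8 pEPI cells without them ran from 175 to 724 FPKM, with a median of 532 FPKM. The kinds overlapped, but the 9 lowest cells of the branch all had Y-linked counts, and 5 of the 7 cells above 500 FPKM were without Y-linked counts. The split held 31.7% of the variance of log2(FPKM + 1) within pEPI. In pPrE the order of medians was the same, at 5.76 FPKM for the 12 cells with Y-linked counts and 32.5 FPKM for the 11 without, while the means were in the opposite order (56.5 and 29.7 FPKM), since the 3 highest pPrE cells all had Y-linked counts. By well letter, the pEPI medians were highest for F (541 FPKM, 4 cells) and lowest for E (74.1 FPKM, 5 cells, all with Y-linked counts). Sex, embryo and stage of the embryo cannot be told apart here.

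Nanog varied more than most genes of its level. It stood 317th of 9367 genes in mean FPKM over all cells and 163rd of 9215 within pEPI. The squared coefficient of variation (CV squared) of Nanog FPKM over all cells was 1.35, the 2nd highest of the 201 genes closest in mean, whose median was 0.0737. Within pPrE it was 2.79, the highest of 201 genes (median 0.168). Within pEPI it was 0.493, the 6th highest of 201 genes (median 0.0470). These values differed between the kinds of cells: CV squared was 3.12 in the pPrE cells with Y-linked counts and 0.446 in those without, and 0.599 and 0.147 in the pEPI cells with and without.

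Nanog (ENSMUSG00000012396) is a protein-coding gene on the plus strand at chr6:122707489-122714633 of GRCm38, with 2242 bases of exon. Its processed pseudogenes added little: Nanog-ps1 on chromosome X held 39 counts over 18 cells, 0.0492% of those of Nanog, and Nanog-ps2 on chromosome 12 held 0, which allows up to 3. The promoter is shown since OCT4 and SOX2, products of genes measured in these cells, are known to bind it side by side. The window from RefSeq (GRCm38.p6, plus strand, chr6:122707239-122707538) spans 250 bases before and 50 bases from the gene start. Capitals mark the match to CATTGT followed after 1 base by ATGCAAA, the letters of a SOX2 and OCT4 element, read on the opposite strand at chr6:122707414-122707427:
Nanog promoter: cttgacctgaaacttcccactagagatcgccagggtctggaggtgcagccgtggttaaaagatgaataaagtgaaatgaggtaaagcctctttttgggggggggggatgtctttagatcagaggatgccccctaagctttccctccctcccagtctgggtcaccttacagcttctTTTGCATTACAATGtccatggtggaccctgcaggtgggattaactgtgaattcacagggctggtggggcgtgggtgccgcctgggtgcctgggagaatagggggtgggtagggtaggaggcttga
This arrangement was searched on both strands in all 32851 promoters of the same length and was found in 2 (0.00609%), both of them overlapping windows of Nanog. ATGCAAA was in 4.63% of all promoters and CATTGT in 12.6%, or in 5.24% and 14.3% of the 27025 genes that these promoters belong to. Among the 145 of 193 genes rising with Nanog over all cells that had a promoter there, ATGCAAA was in 4.14% and CATTGT in 6.21% of genes, beside 3.86% and 8.43% of the 7167 genes tested that had one. The shares were 4.84% and 7.26% in the 124 falling genes with a promoter. In the 54 genes rising within pEPI with a promoter they were 0% and 5.56%, and in the 56 falling there 1.79% and 10.7%. The 7066 genes tested within pEPI that had a promoter gave 3.8% and 8.4%. The pEPI shares rest on few genes, 0 and 3 of those rising and 1 and 6 of those falling. Within pPrE only 5 rising and 13 falling genes had a promoter. Differences between these shares were not tested. A match is a description of the letters and no evidence of binding in these cells.

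Over all 48 cells, Kdm3a, Klf2 and Fgf4 were among the genes that rose with Nanog, and Sdc4, Sox17 and Gata4 among those that fell. A gene was called rising at a rho of at least 0.5 and falling at -0.5 or less, among 9371 genes with counts in at least 25% of the cells and a mean of at least 5 CPM. By this rule 193 genes rose with Nanog (2.06% of those tested) and 162 fell (1.73%). The median rho of all genes was -0.00923, and 95% of them lay between -0.441 and 0.478. These values include the difference between the branches, and with ranks centred within the branches 17 genes rose and 23 fell. Of the 48 called genes named by the rule or the lists, 35 fell short of 0.5 in this way. The 13 still called were Kdm3a, Cldn4, Fgf4, Etv5, Tdrp and Prdm14, which rose, and Slc7a6, Sox17, Creb3l2, Gpat3, Shisal2b, Gata6 and Pdgfra, which fell.

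Of the 12 genes highest in rho, several encode regulators or a ligand. Kdm3a, a demethylase of histone H3 lysine 9, had a rho of 0.806, with a median of 19.3 FPKM in pEPI (2.63 to 53.1) and 4.44 FPKM in pPrE (0.0363 to 18.6). The transcription factor genes Klf2 (rho 0.782) and Spic (0.781) came next, and Klf2 was found in 25 of 25 pEPI and 15 of 23 pPrE cells. Fgf4, the ligand of the FGF pathway in the ICM, had a rho of 0.768, and Etv5, a transcriptional target of FGF signalling, 0.763. Cldn4, a tight junction gene, was the highest of all (rho 0.809), and the water and glycerol channel Aqp3 (0.760), the 14-3-3 gene Sfn (0.741) and Smagp (0.737) rose too. Cldn4 and Aqp3 are also known from trophectoderm, and the part of such transcripts in their values was not tested. The other 3 of the 12 highest were Tdrp (0.766), Lima1 (0.766), which encodes an actin-binding protein, and Bcl2l14 (0.728).

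Falling genes were led by Sdc4, a heparan sulfate proteoglycan that can act as a co-receptor for FGF, with a rho of -0.813 and medians of 78.5 FPKM in pEPI (0.189 to 210) and 320 FPKM in pPrE (99.2 to 501). Sox17 (-0.806) and Gata4 (-0.791) encode endoderm transcription factors. Also falling were the amino acid transporter Slc7a6 (-0.809), the glutamate transporter Slc1a3 (-0.772), the water channel Aqp8 (-0.788) and the acyltransferase Gpat3 (-0.795). Dnmt3a, a de novo DNA methyltransferase, fell with a rho of -0.763, with a median of 1.5 FPKM in pEPI (0 to 9.86) and 9.20 FPKM in pPrE (1.58 to 18.6). The remaining genes of the 12 lowest were Cpn1 (-0.803), Creb3l2 (-0.803), Efna4 (-0.765) and Shisal2b (-0.760).

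Among 15 pluripotency regulators tested, 4 rose with Nanog over all cells and 2 fell, with a median rho of 0.251. Those that rose were Klf2, Prdm14 (0.676), Sox2 (0.663) and Zfp42 (0.617), and those that fell were Klf5 (-0.685) and Sall4 (-0.511). Of these 6, Prdm14 alone was still called with ranks centred within the branches, where Sox2 was at 0.436, Klf2 at 0.415, Zfp42 at 0.318, Klf5 at -0.443 and Sall4 at -0.146. Sall4 was close to the threshold, at -0.490 with the library size as the total count, and its rho within pEPI was 0.171. The network partner Pou5f1 had a rho of 0.218 and Esrrb, which maintains pluripotency in culture, 0.318, so neither was called. Pou5f1 was nearly level between the branches, with medians of 372 FPKM in pEPI (267 to 449) and 340 FPKM in pPrE (224 to 473). Sox2 was lower and patchier, with a median of 9.66 FPKM in pEPI (0 to 41) and 1.42 FPKM in pPrE (0 to 13.1). Pluripotency genes thus did not move as a block with Nanog.

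Of 11 epiblast-associated genes tested, 5 rose and 0 fell, with a median rho of 0.442. They were Fgf4, Morc1 (0.685), Dppa2 (0.621), Utf1 (0.577) and the NODAL co-receptor gene Tdgf1 (0.558), of which Fgf4 alone was still called with ranks centred within the branches. Of the primitive endoderm genes, 11 of 16 tested fell, 0 rose, and the median rho was -0.728. Beside Sox17 and Gata4, the 11 included the basement membrane genes Lamc1 (-0.759), Lamb1 (-0.756), Sparc (-0.737), Col4a2 (-0.736), Lama1 (-0.727) and Col4a1 (-0.712). Gata6, which opposes Nanog, had a rho of -0.729 over all cells, -0.589 within pEPI and -0.361 within pPrE. The receptor gene Pdgfra, of which the reporter allele leaves 1 intact copy, had a rho of -0.731. With ranks centred within the branches 3 of the 11 were still called, namely Sox17, Gata6 and Pdgfra, and the basement membrane genes, Gata4 and Cubn (-0.633 before centring) were not. The endoderm genes Sox7, Lrp2 and Amn were not called, at -0.359, -0.332 and -0.154, and Hnf4a had a rho of 0.300.

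In the FGF and ERK pathway, Fgf4 and Etv5 rose, the receptor gene Fgfr2 fell (-0.744), and so did the phosphatase gene Dusp4 (-0.685), out of 20 genes tested with a median rho of 0.0563. Fgfr2 had a median of 0 FPKM in pEPI (0 to 8.09) and 8.88 FPKM in pPrE (0.733 to 20.6), while the other receptor gene Fgfr1 had a rho of -0.185. With ranks centred within the branches Fgfr2 was not called (-0.360), whereas Fgf4 was (0.630), and within pPrE the rho of Fgfr2 was -0.0415. The kinase genes Map2k1 (0.0884) and Map2k2 (-0.182) and the feedback inhibitors Spry2 (-0.101), Spry4 (0.132) and Dusp6 (0.124) were not called. None of the 5 genes of the LIF and STAT3 pathway was called, with a median rho of 0.00185. Among 13 genes for proteins known to bind NANOG, 2 rose, the histone deacetylase gene Hdac1 (0.698) and Wdr5 (0.626), Sall4 fell, and the median rho was 0.172, while 0 of these 3 were called with ranks centred within the branches. Of 9 formative epiblast genes, 3 had enough counts to be tested and Sox3 had 0 counts. Otx2 had a rho of 0.459, and both Dnmt3a and Dnmt3b (-0.502) fell, for a list median of -0.502. Within pEPI the median of these genes was 0.340, with Dnmt3b at 0.374 and Dnmt3a at -0.597, and with ranks centred within the branches Dnmt3b was at -0.0779. Of 5 trophectoderm genes tested, Tfap2c rose (0.700; 0.269 with ranks centred within the branches), which is also expressed in ICM and germ cells, and Krt8 had a rho of -0.0585.

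**Figure D2:**
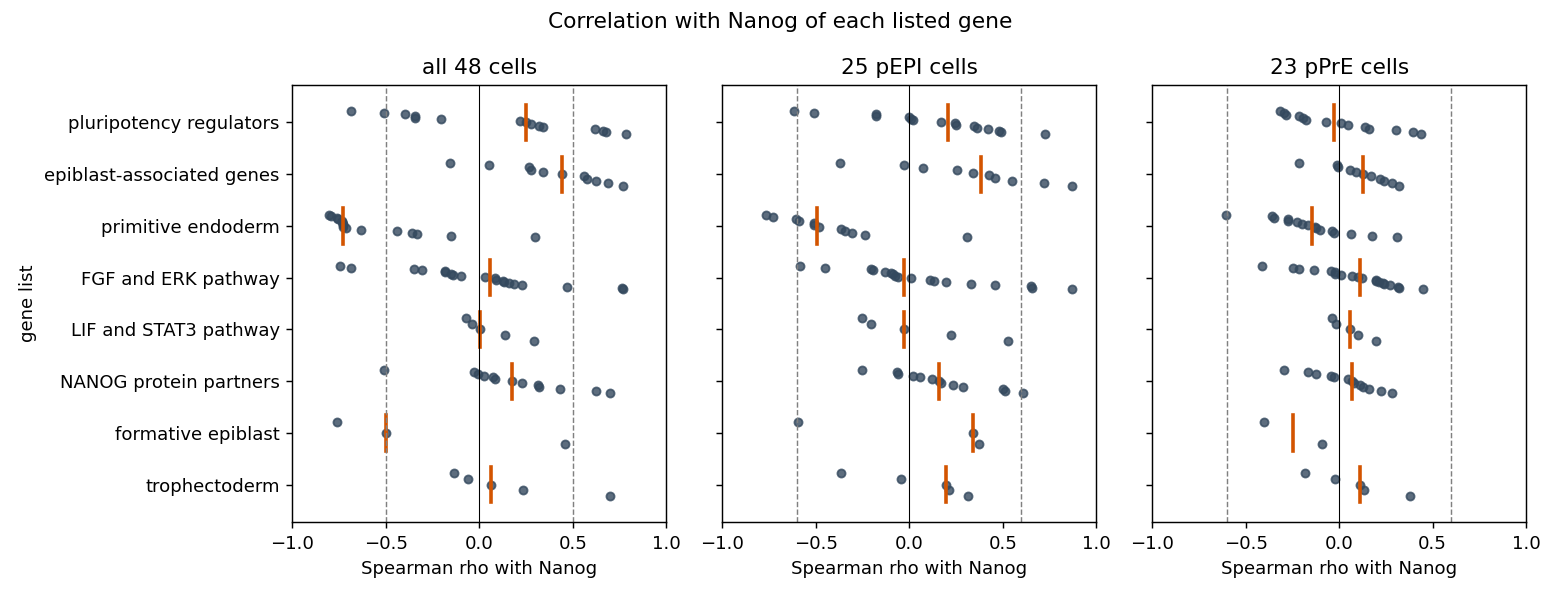
Spearman rho with Nanog of each tested gene of the 8 lists (1 point per gene, orange bar at the list median, dashed lines at the thresholds of 0.5 over all cells and 0.6 within a branch) over 48 cells, 25 pEPI cells and 23 pPrE cells. The primitive endoderm list sits lowest over all cells, with a median of -0.728, and lies at -0.147 within pPrE.

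Within the 25 pEPI cells, where a rho of 0.6 or more was required, Fgf4 and Prdm14 rose with Nanog and Pdgfra and Lamb1 fell, although Prdm14 (0.588) and Lamb1 (-0.564) were not called with ranks centred by Y-linked counts. Of 9219 genes tested, 79 rose (0.857%) and 75 fell (0.814%), and 95% of all rho lay between -0.502 and 0.498. Fgf4 stood first, with a rho of 0.868. The 4 pEPI cells without an Fgf4 count had Nanog from 50.7 to 100 FPKM, and the 21 cells with a count had Nanog from 56.6 to 724 FPKM with a median of 318 FPKM. Prdm14, a regulator of pluripotency and germ cell fate, had a rho of 0.723. The 8 pEPI cells that lacked its counts had Nanog from 50.7 to 204 FPKM. They overlapped the 17 cells with a count, which ran from 56.6 to 724 FPKM with a median of 405 FPKM. Further genes at this end were Pex3 (0.795), a peroxisome assembly gene, Jarid2 (0.750), a partner of Polycomb repressive complex 2, Stk38 (0.739), Mier3 (0.733), Morc1 (0.720), a germline repressor of transposons, and the sterol transporter Abcg1 (0.713). Of 18 FGF and ERK pathway genes tested 3 rose, namely Fgf4, Etv5 (0.654) and Myc (0.649), and 1 of 13 genes for NANOG-binding proteins, Wdr5 (0.609). Etv5 and Wdr5 were not called with ranks centred by Y-linked counts. Myc was not called without letter A (0.593) or C (0.584), or in cells with at least 3000000 counts (0.585).

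At the other end of the pEPI order Nuak1, a kinase gene, was lowest with a rho of -0.834, though it had counts in 14 of 25 cells only. Shisal2b followed with -0.828, but was not called by Pearson correlation of log2 values with pseudocount 0.1 (-0.583). Pdgfra had a rho of -0.766 and Lamb1 -0.729, and with Cubn (-0.608) they made 3 of 12 primitive endoderm genes tested, whose median rho was -0.495, and of which Pdgfra alone was still called with ranks centred by Y-linked counts. Pdgfra ran from 0 to 21.3 FPKM in pEPI with a median of 4.93 FPKM, and the 5 cells lowest in Nanog had 13.9 to 20.8 FPKM. Soat1 (-0.786), Gpat3 (-0.758), Sdc4 (-0.758), Snx2 (-0.752) and Atpif1 (-0.742) completed the 8 lowest. Of the pluripotency genes Prdm14 rose and Nr0b1 fell (-0.617; -0.571 with the total count as the library size), while Tbx3 had a rho of -0.508, Klf2 0.362, Sox2 0.419, Esrrb 0.0215 and Pou5f1 0.0108.

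The genes called in pEPI changed when the kinds by Y-linked counts were taken into account. With ranks centred within cells with and without these counts, 33 genes rose and 29 fell, 19 and 20 of them among the genes called before, and all 79 and 75 of those had the same sign. In the 17 pEPI cells with Y-linked counts alone, a setting chosen after seeing the data, 118 genes rose and 122 fell, 20 and 27 of them among the genes called before. With ranks centred by Y-linked counts, Fgf4 had a rho of 0.811, Nuak1 -0.783 and Pdgfra -0.624. Of the 22 called genes named by the rule or the lists, 8 were no longer called with ranks centred in this way. They were Prdm14, Lamb1, Stk38 (0.581), Abcg1 (0.548), Etv5 (0.492), Wdr5 (0.391), Nr0b1 (-0.507) and Cubn (-0.470). In the 17 cells alone 7 of the 22 were lost, namely Abcg1, Cubn, Lamb1, Pex3 (0.596), Prdm14, Stk38 (0.451) and Wdr5. Of the 79 rising genes 6 (7.59%) lay on the X chromosome, and 2 of the 75 falling genes (2.67%), beside 3.26% of the genes tested. Leaving out the cells of well letter A gave 147 rising and 136 falling genes, and 131 and 113 fell without F and without E, on 20 or 21 cells. Of the 79 and 75 genes, 34 and 32 were still called without C, the fewest for any letter.

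**Figure D3:**
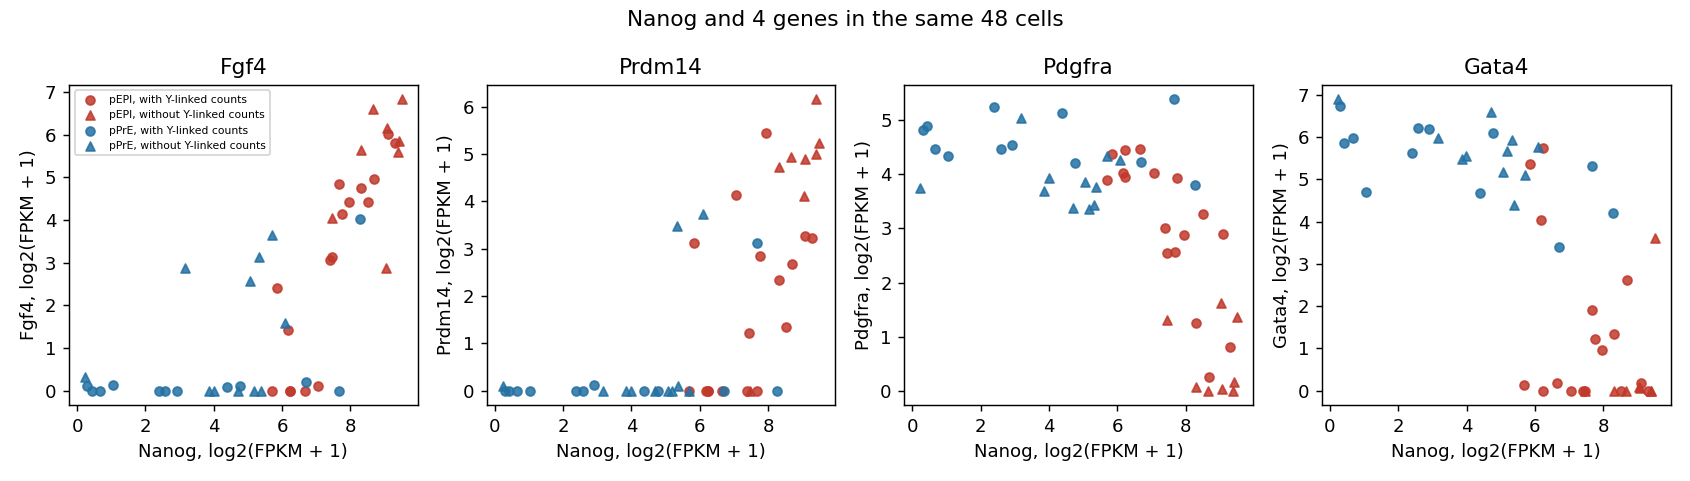
Nanog against Fgf4, Prdm14, Pdgfra and Gata4 in the 48 cells, all as log2(FPKM + 1), with pEPI in red, pPrE in blue, circles for cells with Y-linked counts and triangles for cells without. Within pEPI, Fgf4 rises with Nanog (rho 0.868) and Pdgfra falls (rho -0.766), while Gata4 falls within pPrE (rho -0.605).

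Within the 23 pPrE cells few genes passed the threshold with Nanog. Of 9255 genes tested, 7 rose (0.0756%) and 19 fell (0.205%). The genes that rose were Aup1 (0.670), Ndufaf4 (0.640), Stoml2 (0.614), Praf2 (0.608), Eci2 (0.607), Ccdc86 (0.603) and Usp53 (0.601), and Gnl3l (0.599) was just short of the threshold. The mitochondrial share of counts had a rho of -0.401 with Nanog in these cells, and its part in the result was not tested. Usp53 had counts in 11 of 23 cells and at most 3.82 FPKM. The lowest were Dhx36 (-0.721), a helicase gene, Coa6 (-0.714), needed for cytochrome c oxidase, Naxd (-0.680), Bin1 (-0.679), the fibronectin receptor subunit Itga5 (-0.665), Eno4 (-0.660), Ccdc117 (-0.660) and Smim11 (-0.646). With the library size taken as the total count, 12 genes rose and 16 fell, and without the cells of a well letter 15 to 52 rose and 22 to 60 fell. The genes changed as well, since of the 7 rising genes 1 was still called without letter A, 3 without C, 3 without E and 2 by Pearson correlation with pseudocount 0.1.

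Of the listed genes, Gata4 alone was called within pPrE, with a rho of -0.605, from 9.60 to 117 FPKM in all 23 cells. The call was not stable: Gata4 fell short of the threshold with the library size as the total count (-0.572), with thinned counts (-0.557), by Pearson correlation with either pseudocount (-0.566), and without letter B (-0.548), C (-0.596) or E (-0.596). The median rho of the 16 primitive endoderm genes tested was -0.147, with Pdgfra at -0.273, Sox17 at -0.348 and Sparc at 0.0613. Among genes named above, Fgf4 was at 0.321 on counts in 12 cells, Etv5 at 0.447 and Sox2 at 0.439. No member of the pluripotency, epiblast-associated, FGF and ERK, LIF and STAT3, NANOG-binding, formative or trophectoderm lists was called, and their medians ran from -0.248 (formative) to 0.125 (epiblast-associated).

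The number of genes that move with a gene can be set beside the same number for every other gene. Over all cells Nanog had 355 genes past 0.5 in either direction, while the median gene had 6 and 99.9% of the 9372 genes had fewer. With ranks centred within the branches Nanog had 40, and 95% of genes had fewer. Other lineage genes had many as well, with 295 for Gata4, 285 for Klf2 and 273 for Sox17. Within pEPI it had 154 past 0.6, the median gene had 21 and 99.5% had fewer, while Pdgfra had more than Nanog (184). With ranks centred by Y-linked counts Nanog had 62, the median gene 24, and 98.8% had fewer. Within pPrE it had 26, against a median of 32, and 26.5% of genes had fewer. Nanog was thus among the genes with the most correlated partners in pEPI and below the middle in pPrE, so its number of pPrE calls was not above that of a typical gene. These counts were compared after the values had been seen, and whether the branches differ was not tested.

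Since the branches are separate cells, the genes called in pEPI can be read in pPrE. Both branches were drawn from the same set of embryos, and the rho here were not centred by Y-linked counts. Of the 72 genes rising in pEPI that were also tested in pPrE, 51 (70.8%) had a rho above 0 there, with a median of 0.131, beside 48.7% of all 8677 genes. Of the 73 falling genes, 16 (21.9%) were above 0, with a median of -0.151. Across those 8677 genes, which are not independent of each other, the Spearman correlation of the rho in pEPI and in pPrE was 0.175. These shares were not tested, and the smaller rho in pPrE is not interpreted, because the genes were chosen by their rho in pEPI.

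Genes near Nanog had a higher median rho than all genes, and none was called. Of 40 annotated genes within 500 kb, 22 had counts and 10 were tested over all cells, with a median rho of 0.238 beside -0.00923 for all genes. The medians were 0.217 beside 0.00154 within pEPI and 0.193 beside -0.00791 within pPrE, which was not tested, and with so few genes the shares called over all genes leave fewer than 1 call in either direction. Gdf3, a TGF-beta family ligand 97.4 kb away, had a rho of 0.442, with a median of 72.1 FPKM in pEPI (21.6 to 150) and 50.4 FPKM in pPrE (16.8 to 116). Dppa3, a maternal and germ cell factor 77.2 kb away, was far more abundant, at 214 to 2169 FPKM with a median of 1196, and had no stable relation: its rho was 0.278 over all cells but -0.168 with ranks centred within the branches, and -0.370 within pEPI but 0.0779 with ranks centred by Y-linked counts. The glucose transporter gene Slc2a3, 13.2 kb away, had a rho of 0.0729 over all cells and 0.566 within pEPI. Within pEPI 0 of 11 neighbours tested were called, and within pPrE 0 of 9.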

How the data were processed

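Raw counts of 49671 genes in 48 cells were analysed. Per the labels the authors used STAR and HTSeq, given without versions, and the mm10 build. Their counts, deposited without normalization, were made on the genes of Ensembl 87. The authors had dropped libraries under 500000 mapped reads or with other quality faults. FPKM was computed here from GENCODE M21 exon lengths and median-of-ratios library sizes, and log2 values used a pseudocount of 1. Spearman rho used counts divided by these library sizes. Named genes are the 12 highest and 12 lowest rho over all cells and 8 of each within a branch, without Gm and Rik models, all listed genes, genes within 500 kb and Nanog pseudogenes. Members and lists were chosen with earlier results of these data known. Shares have exact binomial (Clopper-Pearson) and counts exact Poisson 95% intervals. The steps were tested on simulated data. Alternatives covered library size, thinning, filters, correlation, centring, clustering and cells left out. Computations used scipy 1.17.1, pandas 2.3.3 and numpy 2.4.6 under Python 3.11.15, with plots by matplotlib 3.10.9. Protein sequences were not used here, and values of some listed genes are not reported here.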

Additional observations from a re-analysis of the deposited data

How the results depend on the processing

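The log2 ratio of mean Nanog FPKM, pPrE over pEPI, was -2.85 and below 0 under every alternative run, from -4.08 within cells without Y-linked counts to -2.0 within cells with them, and was -2.74 between 2 Ward clusters and -2.51 between average-linkage clusters made without Nanog. These clusters were not the branches: Ward placed 9 of 25 pEPI cells with the 23 pPrE cells, and average linkage, taken at 8 clusters, used 37 cells and placed 4 pEPI cells with 21 pPrE cells. Over all 48 cells the spread of Nanog exceeded that of 99.5% of the 200 genes closest in mean with the total count as the library size, and of 99.0% by the SD of log2 values; the spread within branches was not run under alternatives. Detection was 89.6% of cells at 10 CPM and 75% at 50 CPM. No called gene named by the rule or the lists for a set of cells changed the sign of its rho in that set under any setting run. Of all 193 genes rising over all cells, 192 had the same sign with ranks centred within the branches. Calls of the named genes were lost: at most 35 of 48 over all cells (ranks centred within the branches), 8 of 22 within pEPI (ranks centred by Y-linked counts) and 10 of 16 within pPrE (Pearson correlation with pseudocount 0.1). Counts of genes moved more. Some settings used fewer genes or cells, while Pearson correlation and centring kept the same genes and cells. Over all cells, 121 genes rose by Pearson correlation of log2 values with pseudocount 1, 102 rose and 93 fell with pseudocount 0.1, 115 and 90 with a mean of at least 50 CPM, and 17 and 23 with ranks centred within the branches; in the 19 cells without Y-linked counts, a setting added after the data had been seen, 488 and 460. Within pEPI, 119 fell in cells with at least 3000000 counts, 51 rose with pseudocount 0.1, 46 rose and 29 fell at 50 CPM, 33 and 29 with ranks centred by Y-linked counts, and 118 rose and 122 fell in the 17 cells with such counts, also added later. Leaving out well letters gave 93 to 147 rising (147 without A) and 90 to 136 falling (136 without A, 131 without F, 113 without E), with 34 to 75 of the 79 and 32 to 73 of the 75 genes still among them. Within pPrE, where 7 rose and 19 fell, 12 rose with total counts as the library size and 12 without a minimum CPM, 12 fell with pseudocount 1 and 9 with 0.1, 4 rose and 9 fell at 50 CPM, 44 and 40 in cells with at least 3000000 counts, and 42 and 43 with ranks centred by letter. Leaving out letters gave 15 to 52 rising (15 without C, 19 without E, 21 without A, 25 without F, 39 without B, 52 without D) and 22 to 60 falling (29 without C, 36 without B, 46 without F, 60 without D), with 1 to 7 of the 7 and 8 to 15 of the 19 genes still among them. The percentage of genes with fewer partners than Nanog in pPrE ran from 13.4% to 42.2%, and the cause of these shifts was not tested.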
